A study of Arabidopsis thaliana with 8 samples.

Results

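AT1G26380 and AT5G44440 are 2 genes of the berberine bridge enzyme-like family of *Arabidopsis thaliana*, and they were chosen because they moved in opposite ways in the seedlings compared here. Both were chosen by their measured intensities: AT1G26380 was taken because its signal was higher in the mutant dez than in wild type, and AT5G44440 because its signal was lower on high zinc within dez. Each is read by 1 probe set that matches a single gene, so the pair stands for 2 of the 22746 probe sets on the array outside the controls. Differences in the contrasts that chose a gene are therefore given as descriptions, with no test. Tests were kept for the remaining contrasts, and the other genes of the family are set beside them.

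Whole dark-grown seedlings, 7 days old, were measured on Affymetrix ATH1 arrays, which read 1 sample each with short probes grouped into probe sets. The 4 groups were dez on high-zinc medium (100 µM zinc), dez on control medium (1 µM zinc), wild type on high-zinc medium (100 µM) and wild type on control medium (1 µM), all grown in darkness and collected under dim green light. Each group had 2 biological replicates of about 45 pooled seedlings, and precision is limited by having only 8 arrays. Pooled whole seedlings do not separate organs, and fewer cells of a type cannot be told apart from less RNA per cell. The mutant dez carries a defect in AT5G06700 (TBR), a gene of cell wall polysaccharide acetylation. What the lesion does to the transcript was not analysed here, and the TBR probe set, at 112.4 to 168.5 over the arrays and past the threshold in no comparison, does not check the genotype labels.

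Berberine bridge enzyme-like proteins are oxidases that carry a bound FAD cofactor, most of them secreted through the endomembrane system. The family is named after the enzyme of alkaloid synthesis in poppies and related plants, and *Arabidopsis* members are known to oxidise other substrates, among them pectin-derived oligogalacturonides, cellulose fragments, monolignols and an intermediate of tryptophan-derived defence metabolites. AT1G26380 is known for the last of these reactions, on the route to 4-hydroxyindole-3-carbonyl nitrile, and as a gene that responds quickly to pathogens and elicitors. No individual role is assigned here to AT5G44440.

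Depth has no meaning on arrays, and the arrays lay on a common scale, with medians of the deposited intensity between 34.94 and 37.37 and a lowest correlation within a group of 0.983. Arrays of dez also differed from the rest in their control probe sets. The 25S ribosomal RNA control had a mean log2 intensity of 9.63 ± 1.20 on the dez arrays with high zinc (SD, n = 2), 8.18 ± 0.48 on the dez control arrays, 6.56 ± 0.07 on the wild-type arrays with high zinc and 5.98 ± 0.69 on the wild-type control arrays. The added poly-A spike controls lay in the opposite order, at 6.77 ± 0.23, 7.19 ± 0.14, 7.59 ± 0.40 and 7.67 ± 0.34 in the same sequence of groups. The 3′ minus 5′ signal of actin and GAPDH control probe sets is a sign of RNA quality and labelling. It was 1.20 ± 0.015, 1.46 ± 0.15, 1.59 ± 0.11 and 1.78 ± 0.30 in that sequence, so it was lowest in dez on high zinc. The part of these shifts in the results was not tested beyond the alternative scaling and the covariate given below. Of 16 marker genes of seedling tissues, 2 had a probe set of their own. PORB, a protochlorophyllide oxidoreductase of dark-grown seedlings, lay between 561.5 and 2167 over all arrays, and EXPA7, an expansin of root hairs, between 8.80 and 28.2. EXPA7 was 14.2 and 28.2 in dez on high zinc and 8.80 to 13.7 on the other arrays, so it was highest in the group where several family genes below were high, and its part in those results was not tested.

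AT1G26380 was brightest in dez on high zinc and dimmest in wild type on control medium, with the groups in between in a fixed order. Its intensity was 252.9 and 217.6 on the arrays of dez on high zinc and 181.3 and 142.8 on those of dez on control medium. In wild type it was 106.8 and 71.4 on high zinc and 40.5 and 44.2 on control medium. No 2 groups overlapped. The gaps between the nearest arrays of neighbouring groups were 36.3 between the dez groups, 36 between dez on control medium and wild type on high zinc, and 27.3 between the wild-type groups, while the arrays of a group lay up to 38.5 apart, so neighbouring groups were separated by about as much as replicates differed.

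**Figure D1:**
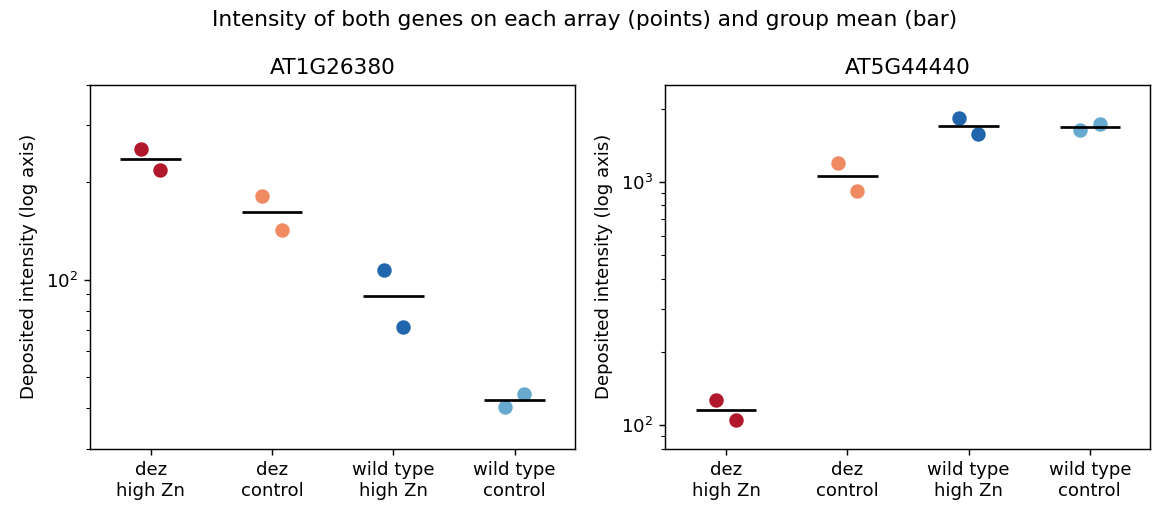
Deposited intensity of AT1G26380 (left) and AT5G44440 (right) on each array, on log axes, with points for the 2 replicates of a group and a bar for the group mean. AT1G26380 has means of 235.3, 162.1, 89.1 and 42.3 from left to right, whereas AT5G44440 has means of 115.4, 1052, 1698 and 1680.

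The genotype difference that chose AT1G26380 was 3.83-fold on control medium, with means of 162.1 ± 27.2 in dez and 42.3 ± 2.62 in wild type (SD, n = 2 each). On high zinc it was 2.64-fold, with 235.3 ± 24.95 in dez and 89.1 ± 25.04 in wild type. On the log2(intensity + 16) scale, which understates changes of dim genes, these differences were 1.60 ± 0.17 and 1.27 ± 0.17 (SE). Among the 13648 tested probe sets the first was the 18th largest and the second the 351st largest. In the contrast on control medium 9.58% of tested probe sets passed limma's test, and on high zinc 42.8% did.

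AT1G26380 also rose with zinc within dez, and the log2 difference was 0.50 ± 0.17 (SE; 95% interval 0.13 to 0.88), and both high-zinc arrays lay above both control arrays. Both dez groups also entered the choice of the gene, so the test is not independent of that choice. The call was narrow, with limma adjusted p = 0.0424, in a contrast where 34% of tested probe sets were called. It was lost without dez control replicate 2 (0.35, adjusted p = 0.275), without dez high-zinc replicate 1 (0.40, adjusted p = 0.223) and without dez high-zinc replicate 2 (0.60, adjusted p = 0.0791).

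In wild type the zinc difference of AT1G26380 was 2.11-fold in mean intensity, with 89.1 on high zinc and 42.3 on control medium. On the log2 scale it was 0.83 ± 0.17 (95% interval 0.455 to 1.21), the 47th largest of the 13648, and it did not pass limma's threshold at adjusted p = 0.0666. Of all tested probe sets 0.703% passed there, with 0.462% higher and 0.242% lower on high zinc. The call stood on the other side without wild-type high-zinc replicate 2 (1.08, adjusted p = 0.0267). All arrays behind both zinc contrasts also entered the genotype differences for which the gene was chosen, so neither test is independent of that choice. The value in dez was 0.896 when arrays were scaled to the poly-A spikes, where the median over all tested probe sets was 0.35 against 0.01 without it. The value in wild type was 0.517 with a pseudocount of 64. The zinc difference in dez minus that in wild type was -0.33 ± 0.24 (SE, no test), and 0.03 when arrays were scaled to the poly-A spikes.

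AT5G44440 followed another pattern: both wild-type groups were alike, dez on control medium lay somewhat lower, and dez on high zinc lay far below all others. Its intensity was 126.3 and 104.5 in dez on high zinc and 1190 and 914.8 in dez on control medium. In wild type it was 1830 and 1566 on high zinc and 1627 and 1733 on control medium. The wild-type groups overlapped, and each dez group lay apart from every other group, by a gap of 437 between dez and wild type on control medium and of 788 between the dez groups.

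The zinc difference in dez that chose AT5G44440 was 9.12-fold, with means of 115.4 ± 15.4 on high zinc and 1052 ± 194.8 on control medium (SD, n = 2 each), or -3.02 ± 0.14 on the log2 scale (SE). It was the 4th lowest of all tested probe sets. On high zinc, dez lay 14.7-fold below wild type (115.4 against 1698), a log2 difference of -3.71 ± 0.14 and the 8th lowest. The zinc difference in dez minus that in wild type was -3.03 ± 0.20, the 5th lowest, in a contrast where 19.4% of probe sets passed. Both of these values rest on the arrays that chose the gene and carry no test. PORB fell in the same contrast, to 633.6 in dez on high zinc against 1576 in dez on control medium (log2 difference -1.295 ± 0.14; limma adjusted p = 8.23e-05), and its part in the result was not tested.

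In wild type, which the choice did not use, zinc left AT5G44440 at 1698 ± 186.8 on high zinc and 1680 ± 75.2 on control medium. The log2 difference was 0.01 ± 0.14 (SE; 95% interval -0.31 to 0.33; limma adjusted p = 0.986), and its sign turned without replicate 1 of wild type on control medium (-0.03) or on high zinc (-0.10) and under quantile normalization (-0.005). The interval leaves room for a small change in either direction.

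On control medium AT5G44440 was lower in dez, at 1052 ± 194.8, than in wild type, at 1680 ± 75.2 (SD, n = 2 each). It fell by 0.68 on the log2 scale in dez (SE 0.14; limma adjusted p = 0.0157), the 332nd lowest of the 13648, and both dez arrays lay below both wild-type arrays. The call was lost without wild-type control replicate 2 (-0.63, adjusted p = 0.0774) and without dez control replicate 2 (-0.49, adjusted p = 0.173). It was also lost at -0.20 (adjusted p = 0.645) after scaling to the poly-A spikes, where the median over all tested probe sets was 0.40 against 0.02 without it. With a covariate for the 3′ minus 5′ signal of actin and GAPDH control probe sets, the value was -0.57 (adjusted p = 0.133). That signal difference, a sign of RNA quality and labelling, was 1.46 ± 0.15 in dez and 1.78 ± 0.30 in wild type on control medium. This contrast shares the dez control arrays with the one that chose the gene.

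**Figure D2:**
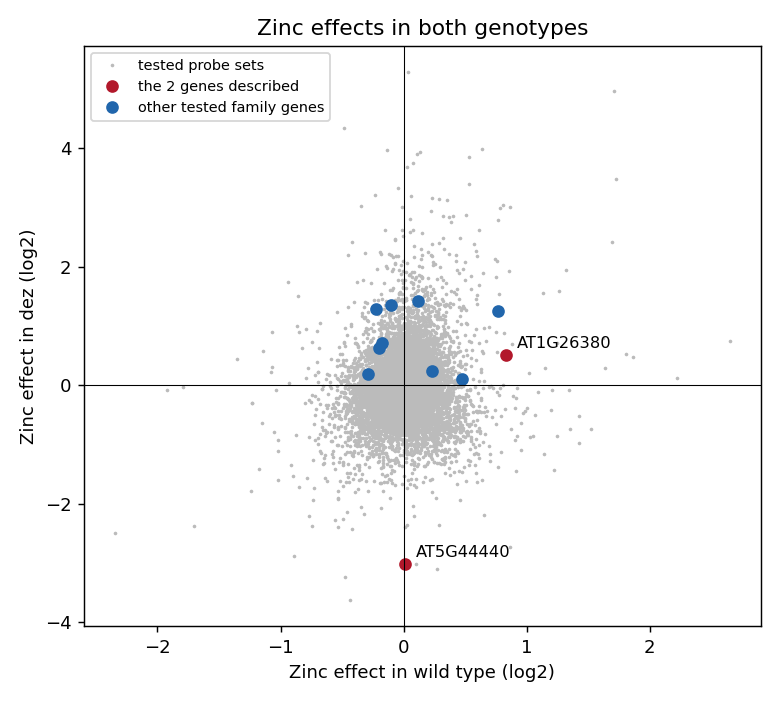
Zinc difference in wild type (x) against that in dez (y), both on the log2 scale, for the 13648 tested probe sets (grey) and the tested family genes (coloured). AT5G44440 sits at 0.01 and -3.02, and AT1G26380 at 0.83 and 0.50.

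The family list holds 27 genes, and 22 of them have a probe set of their own. The other 5 are AT1G01980, AT1G30720, AT1G30730, AT2G34790 and AT4G20840, which are not analysed here. Besides the pair, 20 family genes were measured, and 9 of these were bright enough to be tested. The 11 dim genes lay between 3.30 and 33.6 on every array. A gene bright in 1 group could pass the filter through that group, so counts over the 9 describe these genes and support nothing about the family. AT5G44390 did so: its mean log2(intensity + 16) was 4.90 without dez on high zinc, under the lowest value kept of 5.25, and its values are a description. AT1G26390 stayed just above that value without dez on high zinc, at 5.28, but its wild-type arrays read only 6.45 to 25.8. It leaned on the dez arrays to pass, so its differences between dez and wild type are descriptions too.

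Most of the other tested genes rose with zinc in dez, as AT1G26380 did. With zinc in dez, 6 of the 9 rose (AT5G44390 among them), none fell and 3 did not pass. Of all tested probe sets 16.6% rose and 17.4% fell. The median log2 difference of the 9 was 0.71 against 0.01 over all tested probe sets. Values ran from 0.10 to 1.41. AT1G26420 rose by 1.41 ± 0.16 (SE, limma adjusted p = 1.00e-04), AT4G20860 by 1.28 ± 0.21 and AT1G26390 by 1.26 ± 0.26, and the difference of AT5G44390 was 1.35 ± 0.11. AT4G20860 is known as a cellodextrin oxidase, which acts on cellulose fragments.

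AT1G30700 rose by 0.71 ± 0.17 with zinc in dez, and AT4G20830, known as an oligogalacturonide oxidase, by 0.62 ± 0.16. Both of these calls were lost without dez control replicate 2 (0.56 and 0.53) or without dez high-zinc replicate 2 (0.61 and 0.38), and that of AT1G26390 was lost without dez high-zinc replicate 1 (0.955, adjusted p = 0.051). The value of AT1G26390 depended on the dez control arrays, at 0.806 without replicate 2 and 1.70 without replicate 1. AT4G20860 and AT1G26420 kept theirs without each array in turn. On single arrays AT4G20860 read 348.5 and 329.0 in dez on high zinc and 133.8 and 125.5 in dez on control medium.

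With zinc in wild type none of the 9 passed limma's test, near the 0.703% of all tested probe sets that did, while 2 had an unadjusted p under 0.05, namely AT1G26390 (0.77 ± 0.26) and AT1G26410 (0.48 ± 0.17), both neighbours of AT1G26380. The median of the 9 was -0.11. The zinc difference was larger in dez than in wild type for 5 of the 9 by limma's interaction test, where 8.87% of all tested probe sets passed in that direction. They were AT4G20860 (1.51 ± 0.29), AT5G44390 (1.45 ± 0.15, a description only), AT1G26420 (1.296 ± 0.23), AT1G30700 (0.885 ± 0.24) and AT4G20830 (0.82 ± 0.23). The count was 3 under poly-A spike scaling, and also 3 when replicate 2 of any 1 of the 4 groups was left out.

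On high zinc, 7 of the 9 were higher in dez than in wild type and 1 was lower, against 22.2% and 20.7% of all tested probe sets. The median was 1.08. AT5G44390 is among the 7, but it passed the filter through dez on high zinc alone, so its value is a description. AT1G26390 is also among them and leaned on the dez arrays to pass, so its value is a description as well. AT1G26390 was higher by 1.945 ± 0.26, AT4G20860 by 1.68 ± 0.21, AT1G26420 by 1.59 ± 0.16 and AT5G44390 by 1.51 ± 0.11. AT5G44380 was higher by 1.08 ± 0.27, with 972.1 and 1121 in dez against 701.4 and 334.1 in wild type, a call lost without dez high-zinc replicate 2 (0.98, adjusted p = 0.0754) and with the 3′ minus 5′ covariate (1.01, adjusted p = 0.117). With single arrays left out its value ran from 0.563, without wild-type high-zinc replicate 2, to 1.60.

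AT1G30760, known to oxidise monolignols, was the 1 that was lower in dez on high zinc, at 85.9 and 103.9 in dez and 139.9 and 126.9 in wild type. Its log2 difference of -0.43 ± 0.14 (limma adjusted p = 0.0295) turned to 0.28 after scaling to the poly-A spikes, where the median over all tested probe sets was 0.69 against 0.02 without it. The call was also lost without either wild-type high-zinc array (-0.37 without replicate 1 and -0.50 without replicate 2) and without dez high-zinc replicate 1 (-0.32). AT1G30700 (0.735 ± 0.17) lost its call without wild-type high-zinc replicate 2 (0.49) or dez high-zinc replicate 2 (0.63).

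On control medium 2 of the 9 were higher in dez and none was lower, against 4.2% and 5.39% of all tested probe sets. They were AT1G26390 by 1.46 ± 0.26 (a description only, as above) and AT1G26410 by 0.82 ± 0.17 (limma adjusted p = 0.0153). The call of AT1G26410 was lost without wild-type control replicate 1 (0.80), wild-type control replicate 2 (0.84) or dez control replicate 1 (0.64).

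**Figure D3:**
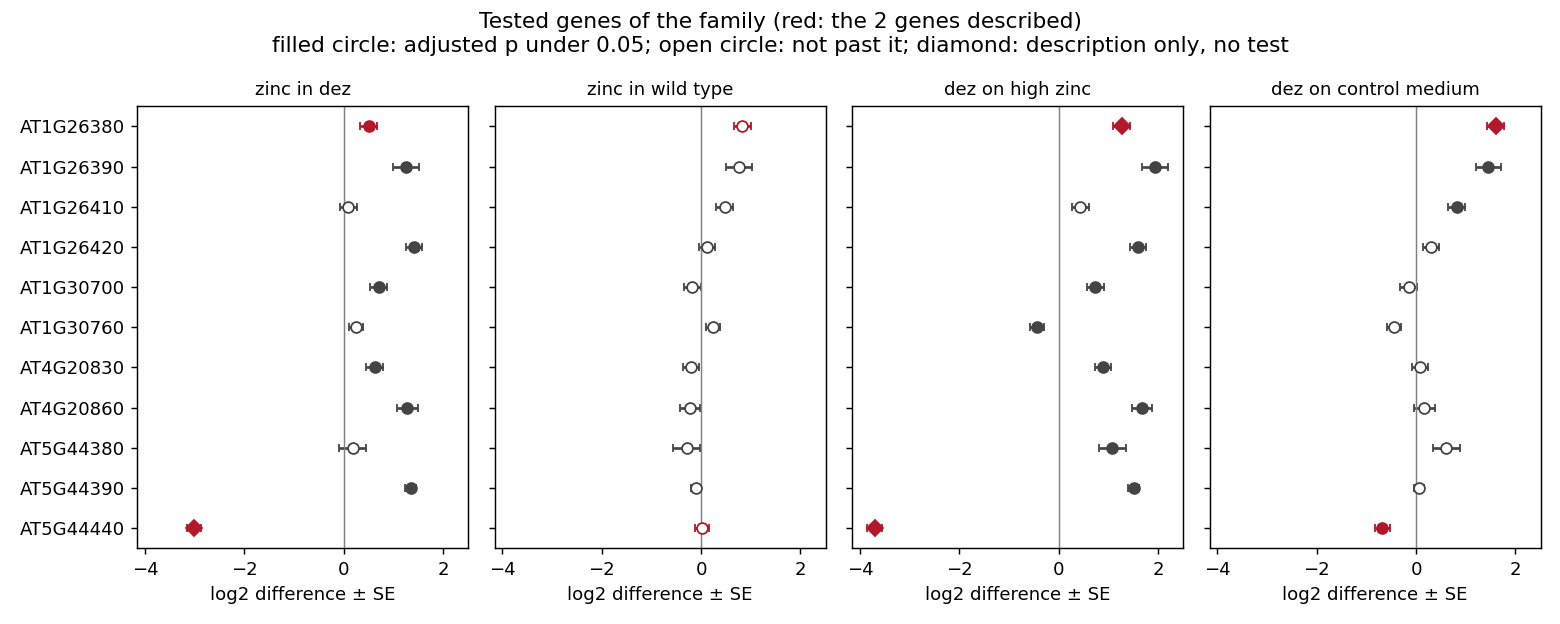
Log2 difference ± SE (x) in 4 contrasts for the 11 tested genes of the family (rows), as high zinc minus control medium or dez minus wild type. Filled circles passed limma's adjusted threshold, open circles did not, and diamonds are descriptions with no test. AT5G44390 has filled circles for zinc in dez and dez on high zinc. It passed the filter through dez on high zinc alone, so these are descriptions too. The filled circles of AT1G26390 for dez against wild type are also descriptions, since it leaned on the dez arrays to pass. AT5G44440 is at -3.02 with zinc in dez, where the other 10 genes lie between 0.10 and 1.41.

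Without the filter on dim probe sets, all 20 other family genes could be tested. With zinc in dez 7 rose and 1 fell, against 22.2% of 22746 probe sets called in either direction. On high zinc 8 were higher and 4 lower in dez than in wild type, against 28.3%. The 4 were AT1G30760 and the dim AT5G44410, AT2G34810 (-0.249) and AT4G20820 (-0.156). AT2G34810 lay between 7.78 and 14.2 over the arrays, and AT4G20820 between 3.63 and 8.21. On control medium 2 were higher and 1 lower in dez, against 5.41%. The lower gene was AT4G20820, at -0.175 (limma adjusted p = 0.0227). With zinc in wild type none of the 20 passed, where 0.453% of all probe sets did. AT5G44410 was the 1 that fell with zinc in dez, in the same direction as AT5G44440. It read 10.9 and 9.44 in dez on high zinc and 20.3 and 19.7 in dez on control medium. Wild type read 19.7 and 19.3 on high zinc and 27.9 and 26.9 on control medium. The log2 difference with zinc in dez was -0.46 ± 0.07 (limma adjusted p = 0.00119), small on this scale because the gene is dim. In wild type it was -0.29 ± 0.07 (adjusted p = 0.185), although the groups did not overlap there either. AT5G44400, dim as well, rose by 0.55 ± 0.10 with zinc in dez (adjusted p = 0.00259), with 0.51 ± 0.10 in wild type (adjusted p = 0.0713). It read 33.6 and 32.4 in dez on high zinc and 16.98 and 18.15 in dez on control medium.

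Both genes lie among relatives on their chromosomes, by the order of genes in the RefSeq annotation of TAIR10.1. AT1G26380 is followed without a gap by AT1G26390, AT1G26400, AT1G26410 and AT1G26420 on chromosome 1. AT1G26390, the next gene, shared its order of groups: dez read 171.5 and 107.7 on high zinc and 71.1 and 30.7 on control medium, and wild type read 25.8 and 21.4 on high zinc and 8.09 and 6.45 on control medium. No 2 of its groups overlapped. AT1G26400 lay between 3.62 and 4.76 on all arrays and showed no such order.

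AT1G26420 read 124.4 and 138.5 in dez on high zinc and 26.7 to 48.0 on the other arrays, so that it was high in 1 group alone. AT1G26410 overlapped between the dez groups, at 53.6 and 42.5 on high zinc and 51.5 and 36.8 on control medium. In wild type it read 40.2 and 23.5 on high zinc and 17.4 and 18.4 on control medium. Across the 8 arrays, which share the 4 groups, the Pearson correlation with AT1G26380 on the log2 scale was 0.96 for AT1G26410, 0.95 for AT1G26390 and 0.80 for AT1G26420. These genes are close relatives, and signal of one on the probes of another cannot be told apart from its own without probe-level data.

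AT5G44440 has 5 relatives within its stretch of chromosome 5, with 2 other protein-coding genes between it and AT5G44410 and 7 between it and AT5G44360. These neighbours did not share 1 pattern. AT5G44390 read 61.4 and 66.3 in dez on high zinc and 9.44 to 15.4 on the other arrays, so it was high in the group where AT5G44440 was low. Their correlation over the 8 arrays was -0.98. It rests largely on that group, through which AT5G44390 passed the filter and by which AT5G44440 was chosen. On control medium AT5G44390 had means of 15.4 in dez and 14.2 in wild type, where AT5G44440 had 1052 and 1680. AT5G44400 was also brightest in dez on high zinc, AT5G44410 dimmest there, and AT5G44360 lay between 4.90 and 7.04 throughout. AT5G44380 read 972.1 and 1121 in dez on high zinc and 911.9 and 923.8 in dez on control medium. In wild type it read 334.1 to 708. Here too, signal of a relative on the probes of another cannot be told apart without probe-level data.

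**Figure D4:**
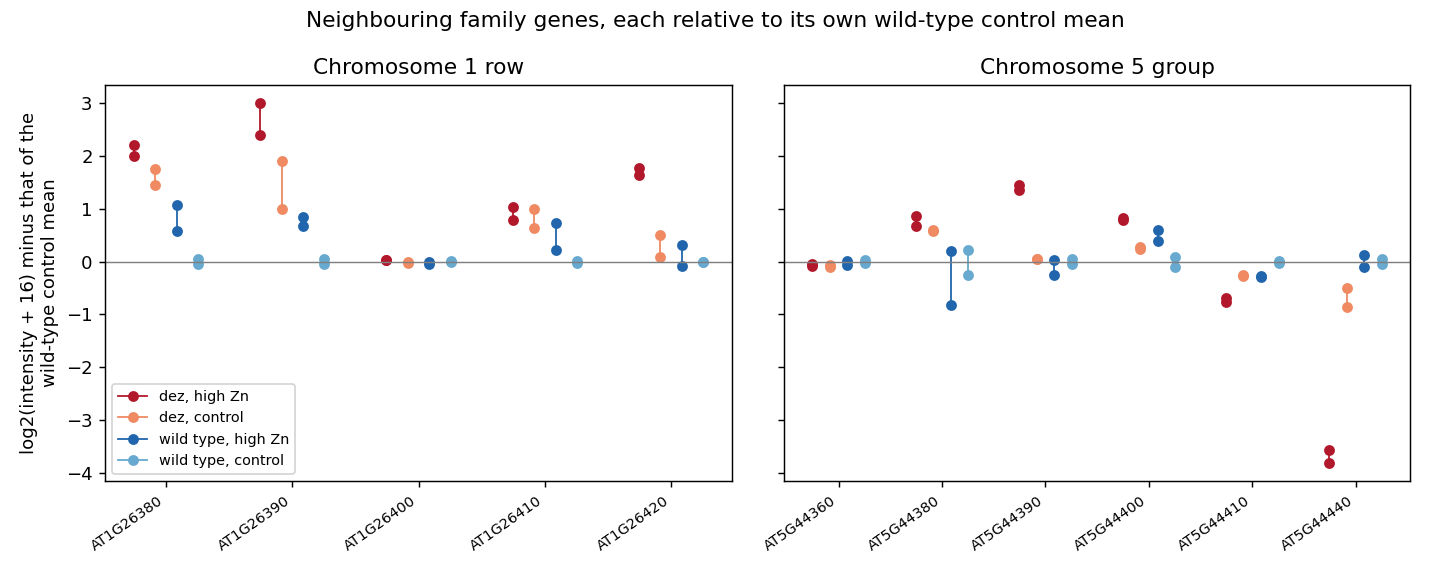
Family genes next to AT1G26380 (left) and near AT5G44440 (right), as log2(intensity + 16) on each array minus the value of the gene's own wild-type control mean (y). Points are arrays, joined within a group and coloured by group. On the left AT1G26420 stands clearly highest in dez on high zinc, while AT1G26400 stays near 0. AT1G26380 and AT1G26390 are also highest there, but by no more than about the spread of their replicates. On the right AT5G44390 and AT5G44440 lie on opposite sides of 0 in dez on high zinc.

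Among 7264 other tested probe sets of single genes, the 5 most like AT1G26380 by Pearson correlation over the 8 arrays were AT2G40290 (0.987), AT1G01940 (0.986), AT5G26710 (0.977), AT1G18540 (0.9749) and AT4G02580 (0.973). AT2G40290 had means of 183.7 and 172.5 in dez on high zinc and control medium, and of 138.2 and 117.6 in wild type on the same media, the order of AT1G26380 in smaller steps. Those most like AT5G44440 were AT3G17750 (0.994), AT4G14270 (0.993), AT2G36835 (0.992), PORB (0.991) and AT3G15900 (0.990). PORB had means of 633.6 and 1576 in dez on high zinc and control medium, and of 2046 and 2019 in wild type on the same media. The 2 genes themselves had a correlation of -0.77. With 4 groups behind 8 arrays, correlations of this size describe the order of the groups and little else.

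Genes of pathways in which family members act could be followed only in part, since few have a probe set of their own. Of 25 genes of tryptophan-derived metabolism (indole glucosinolates, camalexin and indole-3-carbonyl nitrile) 2 were measured, and both were tested. UGT74B1, a glucosyltransferase of glucosinolate synthesis, was at 313.4 in dez on high zinc and 148.8 in dez on control medium, and rose by 1.00 ± 0.12 with zinc in dez (limma adjusted p = 1.35e-04). AT2G04400, an indole-3-glycerol-phosphate synthase of tryptophan synthesis, rose by 1.16 ± 0.15. Of all tested probe sets 16.6% rose with zinc in dez, and 4.2% were higher in dez than in wild type on control medium. UGT74B1 was also higher in dez than in wild type on control medium, by 0.63 ± 0.12 (adjusted p = 0.00891), a call lost without dez control replicate 1 (0.62) or 2 (0.63) and with the 3′ minus 5′ covariate (0.66).

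Of 17 monolignol genes 2 were measured. HCT, a hydroxycinnamoyl transferase, rose with zinc in dez by 1.23 ± 0.11, in a contrast where 16.6% of all tested probe sets rose. Of 12 genes of oligogalacturonide and pattern responses 3 were measured and 2 tested, and AT1G51890 rose with zinc in dez by 0.85 ± 0.17. UGT74B1, AT2G04400, HCT and AT1G51890 were also higher in dez than in wild type on high zinc, by 1.115 to 1.62, against 22.2% of all tested probe sets higher there. CCR2, a cinnamoyl-CoA reductase, and WRKY53, a transcription factor, passed the filter through dez on high zinc alone, with mean log2(intensity + 16) of 5.13 and 5.06 without it, and are described with no weight on a test. CCR2 read 80.7 and 89.95 in dez on high zinc and 11.1 to 29.1 on the other arrays, and WRKY53 read 127 and 115.2 there and 12.4 to 20 on the others. None of these 6 genes passed for zinc in wild type, where 0.703% of all probe sets did. The 2 tested genes of FAD synthesis, AT5G23330 and AT5G08340, had log2 differences of -0.20 and -0.22 with zinc in dez and passed in no comparison.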

How the data were processed

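Biotin-labelled RNA of whole seedlings was hybridised to 1-colour ATH1 arrays, per the labels' protocols. The deposited table holds 1 linear intensity per probe set and array; MAS5 is named in the submitters' processing notes with no role, and no source used here states the scaling that the authors applied to the intensity. After removal of 64 control probe sets, log2(intensity + 16) was computed and the upper 60% by mean were kept (13648 of 22746). A model of 4 group means over the 8 arrays was fitted with limma 3.58.1 (R 4.3.3; eBayes with a trend; 4 residual and 6.28 prior degrees of freedom), two-sided, with Benjamini-Hochberg adjustment over all tested probe sets per contrast and a threshold of 0.05. For a single gene, an exact permutation test of 2 arrays against 2 cannot go below p = 0.333, so it was not used. The procedure was tested on simulated data.

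Genes were named through the platform annotation and RefSeq identifiers: 13513 probe sets had 1 gene (13436 matched RefSeq), 503 several and 8730 none listed. Gene order came from RefSeq's TAIR10.1 annotation, and no promoter or protein sequence was used. The genes, lists and tests were chosen with earlier results of these data known. Named were both genes, every family gene with its own probe set, up to 5 genes per further list by smallest adjusted p, and the 5 genes most correlated with each of the pair. Alternatives were 3 other scalings (quantile, median, poly-A spikes), 2 other pseudocounts and 2 other filters, 2 other priors, a replicate block, a 3′ minus 5′ covariate, only the 4 arrays compared, and each array left out in turn. Replicate numbers were not taken to pair the samples in the main model. Of 6 pairs of groups, 1 had a correlation of deviations above 0.1 (range -0.36 to 0.38). That pair was dez and wild type on control medium. With 2 arrays a group this check cannot exclude pairing, so the replicate block is given as an alternative.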

Additional observations from a re-analysis of the deposited data

Results flagged for a closer look

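The zinc difference was larger in dez than in wild type, by limma's interaction test, for 5 family genes other than the pair. On the log2 scale the difference between the zinc effects was 1.296 for AT1G26420, 0.885 for AT1G30700, 0.82 for AT4G20830, 1.51 for AT4G20860 and 1.45 for AT5G44390, with adjusted p between 1.83e-04 for AT5G44390 and 0.0309 for AT4G20830. The same test passed for 6 genes of the other lists, at 0.99 for AT1G24100 (UGT74B1), 1.12 for AT2G04400, 0.95 for AT5G48930 (HCT), 1.08 for AT1G80820 (CCR2), 1.99 for AT4G23810 (WRKY53) and 0.89 for AT1G51890. AT5G44390, CCR2 and WRKY53 reached the filter on dim probe sets through dez on high zinc alone, so their passing adds no support. Of all tested probe sets, 8.87% passed in this direction. The calls of AT1G30700, AT4G20830, AT1G24100, AT2G04400, AT5G48930 and AT1G51890 were lost under poly-A spike scaling, where their differences were 1.20, 1.14, 1.32, 1.45, 1.28 and 1.19 in that order. The median over all tested probe sets was 0.30 with that scaling and 0.02 without it. With single arrays left out, the call was lost without 5 of the 8 arrays for AT1G30700 (0.64 to 0.99) and without 6 of the 8 for AT4G20830 (0.58 to 0.92) and for AT1G51890 (0.61 to 0.91), and the other 8 genes kept theirs without each array in turn. With 2 arrays a group, no array could be examined as an outlier.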

How the results depend on the processing

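The zinc difference of AT1G26380 kept its sign under all 20 alternatives in both genotypes. In wild type it passed the threshold under quantile normalization (0.833), median centring (0.831), a pseudocount of 1 (1.03) and the replicate block (0.83, adjusted p = 0.0369), and ran from 0.585 to 1.08 with single arrays left out; its adjusted p ran from 0.0267 to 1. In dez it missed the threshold with a pseudocount of 1 (0.541), no filter (0.502) and the 3′ minus 5′ covariate (0.619), and ran from 0.345 to 0.658 with single arrays left out. AT5G44440 in wild type had a difference of -0.005 under quantile normalization and -0.10 to 0.123 with arrays left out. Its difference between dez and wild type on control medium was -0.20 under poly-A spike scaling and -0.571 with the covariate, and -0.865 to -0.491 with arrays left out. With the upper 40% of probe sets alone, 5 other family genes were tested, and the counts past the threshold were 3 for zinc in dez, 0 for dez on control medium, 5 for dez on high zinc and 3 for the interaction. The interaction count was 3 under poly-A spike scaling; with arrays left out it ran from 3 to 6, and that for dez on control medium from 1 to 3. The replicate block changed no other call of the pair and left the family counts at 0, 6, 2 and 5, with 9 in place of 8 for dez on high zinc. Apart from the fit with no filter, the share of all probe sets called under these alternatives is not given. The family counts under them therefore cannot be set against it. In the main setting that share was 34% for zinc in dez and 9.58% for dez on control medium. It was 42.8% for dez on high zinc and 19.4% for the interaction. AT1G30760 in dez on high zinc turned to 0.277 under poly-A spike scaling, and AT1G26380 to 0.033 in the interaction. Under that scaling the median over all tested probe sets was 0.69 against 0.02 without it for dez on high zinc. For the interaction it was 0.30 against 0.02. Causes of these changes were not tested. With a pseudocount of 64 the difference of AT1G26380 on control medium was 1.08 in place of 1.60. Poly-A spike scaling gave 1.997 in place of 1.27 for AT1G26380 and -2.95 in place of -3.71 for AT5G44440 between dez and wild type on high zinc.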
